A study of Arabidopsis thaliana with 4 samples.

Results

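The 21 probe sets for family 1 beta-glucosidases were followed in whole Arabidopsis thaliana seedlings in which the embryo regulator LEAFY COTYLEDON1 (LEC1) had been switched on. They were the probe sets annotated to a single gene with the symbol PYK10 or BGLU plus a number, 21 of 22746 on the array, each for a different gene. Seedlings of both groups were of the Columbia ecotype and had the pER8-LEC1 transgene, an estradiol-responsive construct for LEC1. LEC1-induced seedlings spent 4 days on 0.01 mM estradiol from sowing, and control seedlings the same 4 days on 0.1% DMSO. No DMSO level is recorded here for the induced seedlings. Each group had 2 biological replicates, each a pool of about 100 mg of whole seedlings hybridized to 1 Affymetrix ATH1 array. The number of transgenic lines is not given in the sources used here, estradiol without the transgene is not analysed here, and neither is the level of LEC1 itself.

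Family 1 beta-glucosidases release glucose from small glycosides, and plants use them to unlock stored defence compounds, hormones and lignin precursors. In Arabidopsis one branch of the family carries a signal that keeps the enzyme in the endoplasmic reticulum (ER). Its best-known member, PYK10, fills the ER bodies, spindle-shaped compartments that are abundant in seedling epidermis and in roots. Other branches act in the cell wall or the vacuole, and a further one holds the myrosinases, which cut glucosinolates.

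None of the tested beta-glucosidases passed between LEC1-induced and control seedlings, but several had higher signals in both induced replicates. Of members above the brightness filter on all 4 arrays, BGLU40, BGLU25 and BGLU16 differed most, 2.80, 2.44 and 2.32 times higher in induced seedlings. PYK10 differed little, by 0.23 ± 0.20 SE on the log2 scale. Signals are arbitrary units after quantile normalization, group means are means of log2 signals, and every change is the induced minus the control mean on the log2 scale. Of the 21 probe sets, 13 were bright enough for the test, and 0 of these 13 rose and 0 fell in limma at an adjusted p of 0.05, against 2.83% and 2.91% of 14433 probe sets tested, or 5.74% in either direction. Without adjustment 6 of 13 had a limma p under 0.05, against 26.5% of all tested, and among probe sets above the filter on all 4 arrays 3 of 8 (37.5%) did, against 25.8%. BGLU19, BGLU29 and BGLU45 are among the 6 and entered the test only through their induced arrays. Run on the same values, the methods' t-test called 0 of 13 at an adjusted p of 0.05 and 1, BGLU29, at its own threshold of 0.2, and 4 had an unadjusted p under 0.05, against 17.3% of all tested. Among the members under 0.05 by that method were BGLU29 and BGLU45, which entered only through their induced arrays and so had to be higher there. The others, BGLU40 and BGLU16, were above the filter on all 4 arrays. Only 2 arrays per group limit the precision. After adjustment over the 14433 probe sets an unadjusted limma p of 0.00285 or less was needed for a call. BGLU40 had the smallest p of the family, 0.00410.

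Among the 13 tested probe sets, 8 had both induced arrays above both control arrays and 1 had both below, against 29.3% and 29% of all tested, or 58.3% in either direction. The remaining 4 overlapped between groups. Of these 8, 3, BGLU19, BGLU29 and BGLU45, entered the test only through their induced arrays and so had to be higher there, as 526 probe sets in all did. The 8 probe sets above the filter on all 4 arrays had a median log2 change of 0.52, with 6 higher and 2 lower and a range of -0.49 to 1.49. Over all 11306 probe sets above the filter on 4 arrays the median was -0.03, and 48.7% were higher. In whole seedlings, fewer cells of a type and less RNA per cell cannot be told apart.

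**Figure D1:**
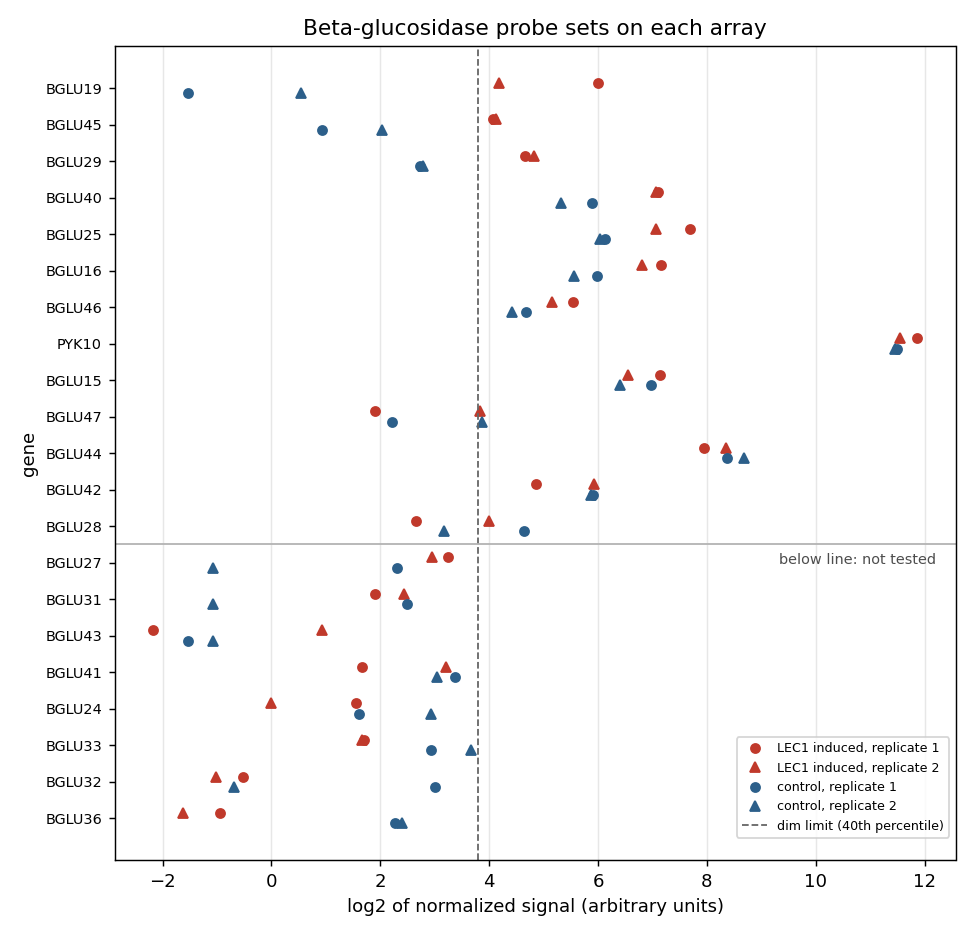
Log2 normalized signal of the 21 beta-glucosidase probe sets on each array, with LEC1-induced arrays in red, control arrays in blue and the replicate number as the marker shape. The dashed line is the dim limit, a signal of 13.9. The 13 tested probe sets stand above the grey line and the 8 untested ones, all under the limit on 4 arrays, below it.

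The ER-retained branch was represented by PYK10, BGLU19, BGLU24 and BGLU25. PYK10 (AT3G09260), the main ER body enzyme, had normalized signals of 3724 and 2973 in induced seedlings, against 2880 and 2799 in controls. The induced arrays were both above the controls, but replicate 2 of the induced group was above them by a small margin. PYK10 averaged a log2 signal of 11.70 ± 0.23 in induced seedlings and 11.47 ± 0.03 in control seedlings (SD, n = 2 each), and the difference of 0.23 had a 95% interval of -0.25 to 0.71 (limma adjusted p = 0.495). Its direction depended on scaling. Without normalization the PYK10 change was 0.22 while the median of all tested probe sets shifted by 0.62, and under median centring it was -0.53 with a median shift of -0.14, so relative to that median PYK10 was lower under both.

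BGLU25 (AT3G03640) had signals of 205.2 and 134.2 in induced seedlings, against 70.1 and 65.9 in controls. Both induced arrays were far above the controls, with the wider spread in the induced group. The log2 difference of BGLU25 was 1.29 ± 0.35 SE (95% interval 0.45 to 2.12, limma adjusted p = 0.0819), with 1.55 and 1.03 within replicates 1 and 2.

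BGLU19 (AT3G21370) was above the dim limit in induced seedlings only. Its signals were 63.8 and 18.2 in induced seedlings, against 0.35 and 1.46 in controls. Both controls were under the dim limit of 13.9, the 40th percentile of normalized signals, so only a lower bound holds: BGLU19 was at least 2.46-fold higher in induced seedlings (limma adjusted p = 0.108). Since BGLU19 entered the test only through its induced arrays, it had to be higher there. The 2 induced arrays differed widely, and induced replicate 1 carried most of the signal. BGLU24 (AT5G28510) was under the dim limit on all arrays and was not tested.

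No partner of PYK10 in the ER body passed the test. NAI1 is the transcription factor that ER bodies depend on, NAI2 an ER body protein needed for their formation, and the JAL genes encode jacalin-related lectins found in complexes with PYK10. Of 15 listed ER body genes besides the glucosidases, 6 had a probe set named for them alone and 5 were tested, of which 0 rose and 0 fell in limma. The 5 are named for their place in the ER body; by the rule for naming genes only JAL33 and JAL34 would be, and the others were chosen after their values were seen.

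NAI2 (AT3G15950) had signals of 805.2 and 1139 in induced seedlings, against 601.0 and 505.2 in controls. The groups did not overlap, and the log2 difference of NAI2 was 0.80 ± 0.29 SE (95% interval 0.10 to 1.50, limma adjusted p = 0.149). JAL22 had signals of 667.5 and 758.6 in induced seedlings, against 405.1 and 565.5 in controls, also without overlap (limma adjusted p = 0.264). Under median centring, with its median shift of -0.14, the log2 differences of NAI2 and JAL22 were 0.21 and 0.032. The transcription factor NAI1 overlapped between groups, at 27.9 and 30.5 in induced seedlings, against 54.9 and 21.5 in controls. JAL33 and JAL34 overlapped as well, with log2 differences of 0.09 and -0.23. JAL33 turned to -0.53 under median centring and NAI1, at -0.23, to 0.50 without normalization. The median log2 change over the 5 ER body genes was 0.09, against 0 over all tested probe sets. JAL23 was too dim for the test.

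**Figure D2:**
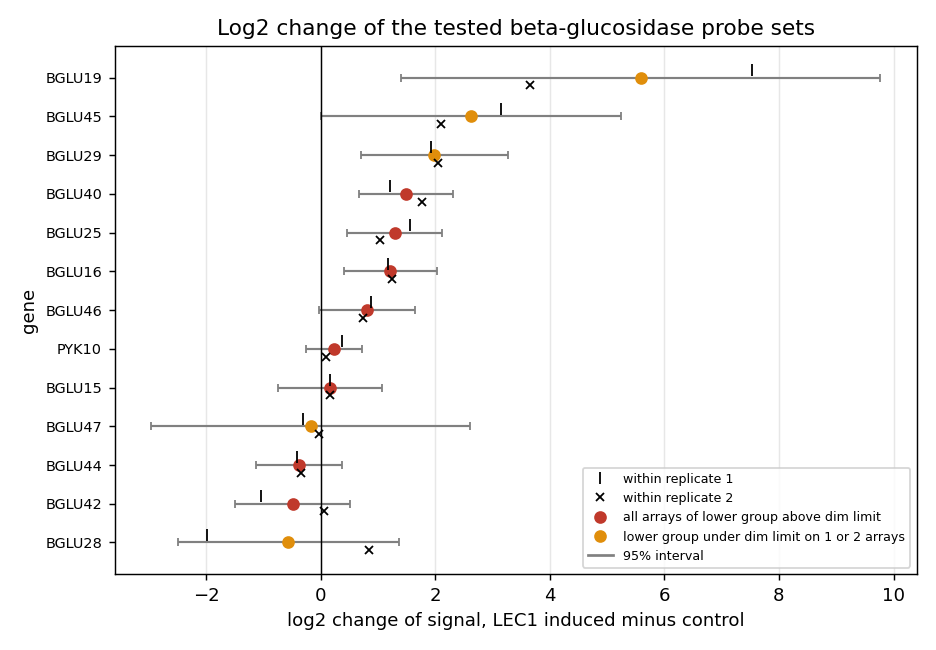
Log2 change of signal (LEC1 induced minus control) of the 13 tested beta-glucosidase probe sets, with 95% intervals as bars and the change within each replicate number as black marks. Orange points had 1 or 2 arrays of the lower group under the dim limit, so their size rests on dim signals. The intervals of BGLU40, BGLU25 and BGLU16 lie above 0, and those of PYK10, BGLU15, BGLU46, BGLU42 and BGLU44 include it.

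BGLU45, BGLU46 and BGLU47 form the branch linked to monolignol glucosides, the storage and transport forms of lignin building blocks; BGLU45 and BGLU46 cut them. BGLU46 (AT1G61820) had signals of 46.7 and 35.6 in induced seedlings, against 25.4 and 21.5 in controls. The groups did not overlap, and the log2 difference of BGLU46 was 0.80 ± 0.35 SE (95% interval -0.03 to 1.64, limma adjusted p = 0.203). BGLU45 (AT1G61810) had signals of 16.8 and 17.3 in induced seedlings, against 1.90 and 4.06 in controls. It lay just above the dim limit in induced seedlings and under it in controls, at least 1.23-fold higher (limma adjusted p = 0.188). BGLU45 entered the test only through its induced arrays and so had to be higher there. BGLU47 (AT4G21760) had 3.74 and 14.3 in induced seedlings, against 4.65 and 14.7 in controls. In BGLU47 the arrays of each group lay far apart and the groups overlapped almost fully.

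Tested genes for making these glucosides and coumarins had lower mean signals in induced seedlings. Of 15 listed genes 5 had a probe set named for them alone and 4 were tested, of which 0 rose and 0 fell in limma. Lower means were found for 4 of 4, against 50% of all tested probe sets. Their median log2 change was -1.002, against 0 over all tested. UGT72E2, a glucosyltransferase of monolignols, had signals of 102.5 and 263.9 in induced seedlings, against 314.4 and 437.2 in controls (limma adjusted p = 0.195). The groups did not overlap but the induced arrays differed widely. Its close relative UGT72E1 overlapped between groups, with a log2 difference of -1.25 ± 0.68 SE (limma adjusted p = 0.291). Both values rested on single arrays: without LEC1 induced replicate 2 UGT72E1 and UGT72E2 passed (limma adjusted p = 0.0451 and 0.0128), while without induced replicate 1 their log2 differences were -0.43 and -0.49, and without control replicate 2 that of UGT72E1 was -0.53. AT3G13610 and UGT72E3 fall outside the naming rule and were added after their values were seen. AT3G13610, the hydroxylase that opens coumarin synthesis, had signals of 57.9 and 60.8 in induced seedlings, against 96.0 and 115.8 in controls (limma adjusted p = 0.155). UGT72E3 differed by -0.58 ± 0.49 SE (limma adjusted p = 0.482), and by 0.12 without normalization.

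**Figure D3:**
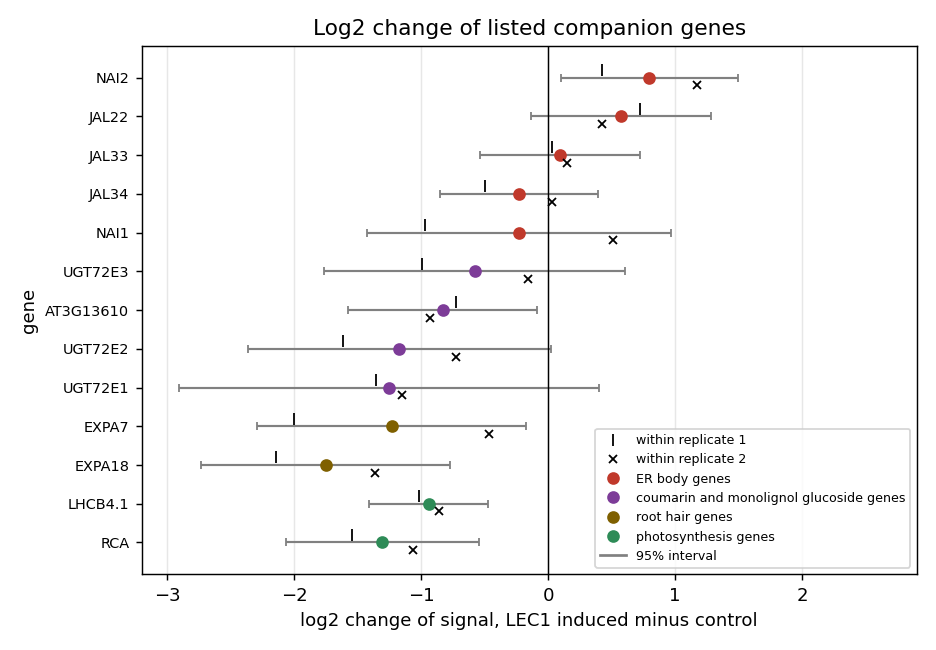
Log2 change of signal (LEC1 induced minus control) of listed companion genes, with 95% intervals as bars and the change within each replicate number as black marks. NAI2 and JAL22 were higher within both replicates. The coumarin and monolignol glucoside genes, the root hair genes EXPA7 and EXPA18 and the photosynthesis genes LHCB4.1 and RCA were lower within both.

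BGLU40 (AT1G26560) came nearest to a call. Its signals were 137.5 and 134.4 in induced seedlings, against 59.4 and 39.7 in controls. The induced arrays agreed closely and both were more than the spread of the controls above them. BGLU40 averaged a log2 signal of 7.09 ± 0.02 in induced seedlings and 5.60 ± 0.41 in control seedlings (SD, n = 2 each), a difference of 1.49 ± 0.34 SE (95% interval 0.66 to 2.31, limma adjusted p = 0.058). The change of BGLU40 was higher than that of 93.4% of tested probe sets. Its change was 1.21 and 1.76 within replicates 1 and 2. With a stricter filter (limma adjusted p = 0.0455) or with 16 added to each signal (0.046) it passed.

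BGLU15, BGLU28 and BGLU29 stand next to each other in the gene order of assembly TAIR10.1. BGLU15 (AT2G44450) is an enzyme of flavonol glycoside breakdown, and BGLU28 is known for its rise under sulfur shortage. BGLU29 (AT2G44470) had signals of 25.1 and 28.3 in induced seedlings, against 6.66 and 6.90 in controls. Replicates of BGLU29 agreed closely in both groups, and with both controls under the dim limit it was at least 1.92-fold higher in induced seedlings (limma adjusted p = 0.0821). As BGLU29 entered the test only through its induced arrays, it had to be higher there. With a variance prior without a trend BGLU29 passed (limma adjusted p = 0.0478). Its neighbours differed from it in pattern. BGLU15 had 141.0 and 93.9 in induced seedlings, against 125.8 and 84.5 in controls. The arrays of each group lay further apart than the group means (log2 difference 0.16 ± 0.38 SE, limma adjusted p = 0.816). BGLU28 (AT2G44460) had 6.33 and 16 in induced seedlings, against 25.0 and 8.99 in controls, with opposite directions within replicates 1 and 2 (-1.98 and 0.83).

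BGLU16 (AT3G60130) had signals of 142.0 and 111.9 in induced seedlings, against 62.9 and 47.1 in controls. Its groups were well apart, with a log2 difference of 1.21 ± 0.34 SE (95% interval 0.40 to 2.02, limma adjusted p = 0.0866) and changes of 1.18 and 1.25 within replicates 1 and 2. BGLU27 (AT3G60120), next to BGLU16 in the gene order, was under the dim limit on all arrays.

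BGLU42 and BGLU44 were among the 4 tested members with lower means in induced seedlings. BGLU42 (AT5G36890), a root enzyme that frees coumarins from their glucosides, had signals of 29.2 and 60.5 in induced seedlings, against 60.3 and 58.2 in controls. Induced replicate 1 alone was low, and without it the log2 difference of BGLU42 was 0.03 in place of -0.49 (limma adjusted p = 0.481 with all arrays). BGLU44 (AT3G18080), known to cut short mannose chains, had signals of 246.3 and 325.9 in induced seedlings, against 329.6 and 412.7 in controls. It was the only tested member with both induced arrays below both controls, by a narrow margin, and its log2 difference of -0.38 ± 0.31 SE had a 95% interval of -1.14 to 0.37 (limma adjusted p = 0.470). BGLU43, next to BGLU44 in the gene order, was under the dim limit on all arrays.

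The 8 remaining members were not tested because no array was above the filter for them. Signals as deposited were 0.6 and 0.3 for BGLU36, a myrosinase-type gene, in induced seedlings, against 4.4 and 4.0 in controls. BGLU33, the vacuolar enzyme that frees abscisic acid from its glucose ester, had 4.8 and 3.3 as deposited in induced seedlings, against 7.0 and 8.9 in controls. BGLU27 had 14.3 and 7.7 as deposited in induced seedlings, against 4.5 and 0.4 in controls. The other 5, BGLU24, BGLU31, BGLU32, BGLU41 and BGLU43, had deposited signals between 0.2 and 9.3 on the 4 arrays. Signals this low have no order, and no fold is given. The nearest members just inside the filter were BGLU28 and BGLU47, each above it on 1 induced and 1 control array.

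**Figure D4:**
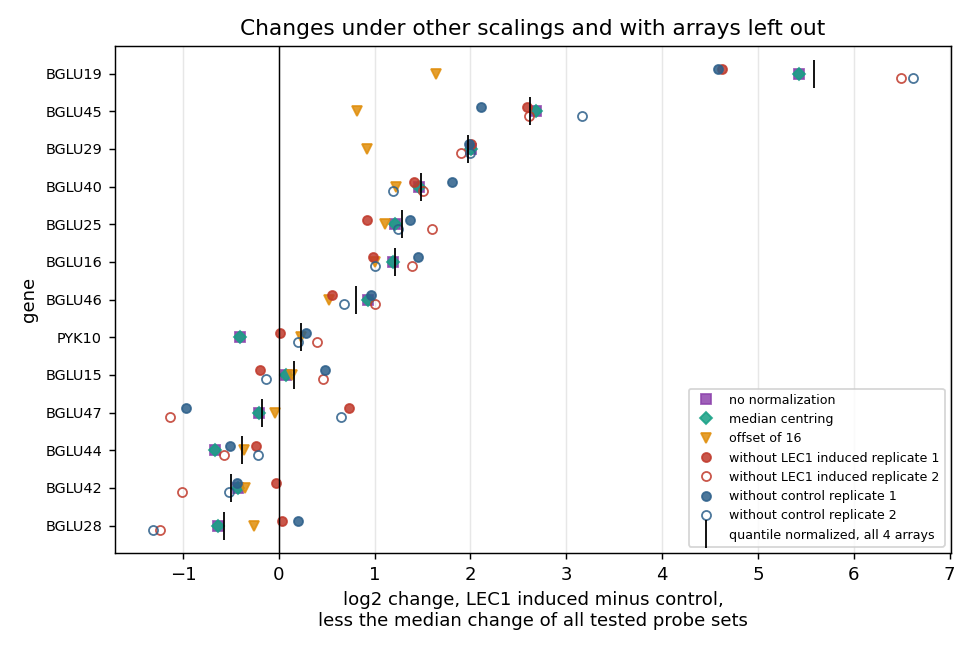
Log2 change of each tested beta-glucosidase probe set under other scalings and with 1 array left out, after subtracting the median change of all tested probe sets under that setting, so that no normalization and median centring coincide. BGLU16, BGLU25, BGLU29, BGLU40, BGLU45 and BGLU46 stay above 0 under the settings shown. BGLU29 and BGLU45 entered the test only through their induced arrays and so had to be higher there. PYK10, BGLU15, BGLU28 and BGLU47 cross 0, and BGLU42 stays below it, from -1.01 to -0.026.

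Few genes for the substrates had a probe set under a name of their own. Of 32 listed glucosinolate synthesis genes, whose products are cut by myrosinases and by PYK10, 4 were tested. Of these 1 rose and 1 fell in limma, against 2.83% and 2.91% of all tested probe sets, and 2 did not pass. Lower means were found for 3 of 4, against 50% of all tested, with a median log2 change of -0.731, against 0. AOP3, which modifies glucosinolate side chains, had signals of 1093 and 932.0 in induced seedlings, against 0.57 and 0.47 in controls, and rose at least 72.7-fold (limma adjusted p = 1.07e-04). AOP3 entered the test only through its induced arrays, so only a rise could be called. BCAT4, the aminotransferase that starts methionine chain elongation, had signals of 37.1 and 47.1 in induced seedlings, against 227.0 and 224.6 in controls, and fell by 2.43 ± 0.32 SE on the log2 scale (limma adjusted p = 0.0152). BCAT4 no longer passed when control replicate 1 or 2 was left out (limma adjusted p = 0.106 and 0.104) or when the arrays were not normalized (0.0732). None of 18 listed glucosinolate breakdown genes had a probe set named for it alone in the annotation used here. UGT71C5, which makes the abscisic acid glucose ester, differed by -0.05 ± 0.39 SE (limma adjusted p = 0.946), the 1 tested gene of 13 listed for abscisic acid turnover.

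Signals of tissue markers are given beside these values, and not all of them passed between the groups. Both named root hair genes, EXPA7 and EXPA18, 2 of 23 listed root markers, had a summed normalized signal of 69.2 and 137.6 in induced seedlings, against 295.6 and 295.0 in controls, and neither passed (limma adjusted p = 0.142 and 0.0594). EXPA18 passed under median centring (limma adjusted p = 0.0274) but not without normalization (0.197) or with a prior without a trend (0.0962). EXPA7 passed under none of these (0.097, 0.538 and 0.186). Without LEC1 induced replicate 2 the log2 changes of EXPA7 and EXPA18 were -1.75 and -2.23. Without induced replicate 1 they were -0.71 and -1.27. The 2 measured photosynthesis genes of 19 listed shoot markers, LHCB4.1 and RCA, summed to 2542 and 3405 in induced seedlings, against 5958 and 6624 in controls, and LHCB4.1 fell in limma (adjusted p = 0.0446). LHCB4.1 no longer passed without normalization (limma adjusted p = 0.2), without the filter (0.2) or with a prior without a trend (0.144). RCA, not called in the main fit (0.0651), passed under median centring (0.0238) but not without normalization (0.11). Without LEC1 induced replicate 1 or 2 the log2 change of RCA was -0.90 and -1.71. The 4 measured seed markers of 17 listed, PAP85, AT2G28490, OLEO3 and AT3G01570, all rose in limma, against 2.83% of all tested probe sets. Their summed signals were 21110 and 19800 in induced seedlings, against 51.9 and 57 in controls. PAP85, AT2G28490 and AT3G01570 entered the test only through their induced arrays, so only a rise could be called for them. FMA, the 1 named myrosin cell marker of 3 listed, was under the dim limit on all arrays. Actin control probe sets, a check of RNA quality and amplification, were brighter at the 3' end than at the 5' end by a ratio of 1.96 and 1.94 on induced arrays, against 3.28 and 3.01 on control arrays. The same ratio for GAPDH was 0.932 and 0.911 on induced arrays, against 0.773 and 0.89 on control arrays. Array medians as deposited were 39.4 and 22.3 on induced arrays, against 20 and 15.5 on control arrays. The part of any of these in the beta-glucosidase values was not tested.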

How the data were processed

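The authors deposited a linear signal intensity for each probe set on each array. The submitters' processing notes name MAS5, while its scaling target and present or absent calls are unknown here. The members and gene lists were chosen with earlier results of these data known. The 64 array controls were left out, values under 0.1 were set to 0.1, log2 values were quantile normalized, and a probe set was tested if its signal exceeded the array's 40th percentile on at least 2 arrays. The contrast was fitted in limma 3.58.1 under R 4.3.3 (mean-variance trend, two-sided, Benjamini-Hochberg over 14433 probe sets, threshold 0.05). The procedure was tested on simulated data with changes larger than those of BGLU40, BGLU25 and BGLU16, so its power for changes of their size was not tested. Intervals are limma's 95% intervals, and errors are SE from limma or SD over 2 arrays. A fold against a group with an array under the dim limit of 13.9 is a lower bound, with each such array set to the limit. This bound allows for dim signals only, not for the spread between replicates. Names came from the platform annotation, and symbols were brought up to date with RefSeq's gene table for assembly TAIR10.1. Of 48 family loci listed, 21 had a member. A probe set annotated to both BGLU21 and BGLU22 is no member, and no genome build is named for the values, so no positions are given. Every member is named. Of each list, up to 6 members that passed are named, or the 2 brightest tested where fewer than 2 passed. No sequence is shown, since none of the files used here holds one. P-values of the t-test measure the spread between 2 biological replicates per group. Those of limma combine that spread (2 residual degrees of freedom) with the spread of other probe sets of like signal (4.39 prior degrees of freedom).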

Additional observations from a re-analysis of the deposited data

How the results depend on the processing

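With a count of 0 risen and 0 fallen beta-glucosidases, no call could be lost. Calls appeared with a stricter filter (1 risen, BGLU40), with 16 added to each signal (1, BGLU40), with a prior without a trend (1, BGLU29), in the methods' t-test at 0.2 (1, BGLU29) and without LEC1 induced replicate 2 (1, BGLU25, limma adjusted p = 0.0268), and leaving out an array gave 0 to 1 risen. With the replicate number as a block, 3 rose, BGLU40, BGLU25 and BGLU16 (limma adjusted p = 0.0177, 0.0261 and 0.0262). BGLU29 entered the test only through its induced arrays, so in any setting only a rise of it could be called. Same-numbered arrays deviated together from their group means (correlation 0.311 over probe sets), but with 2 per group and no shared origin in the labels they share only a number. Over all probe sets, 408 rose and 420 fell. This became 233 and 148 with a prior without a trend, 1178 and 1405 with the replicate block, 1 and 1 in the methods' t-test at 0.05, and 189 and 207 at 0.2. Without normalization 494 rose and 97 fell, and with median centring 447 and 962. Leaving out an array gave 130 to 756 rises and 6 to 1179 falls, the fewest without control replicate 2 and the most without LEC1 induced replicate 2. Signs turned for 9 genes, none of them called. Under median centring BGLU15 was -0.057, PYK10 -0.53 and JAL33 -0.53. Without normalization BGLU42 was 0.19, BGLU47 0.41, UGT71C5 0.60, NAI1 0.50 and UGT72E3 0.12. With 1 array left out, log2 changes ranged from -0.14 to 0.45 for BGLU15, -1.31 to 0.16 for BGLU28, -1.02 to 0.031 for BGLU42, -1.14 to 0.79 for BGLU47, -0.076 to 0.26 for JAL33, -0.91 to 0.45 for NAI1 and -0.48 to 0.38 for UGT71C5. The cause was not tested. BGLU16, BGLU25, BGLU40 and BGLU46 were higher, and BGLU44 lower, in induced seedlings under each alternative run that tested them. BGLU19, BGLU29 and BGLU45 were higher too, but they entered the test only through their induced arrays and had to be. With the replicate block UGT72E1 and UGT72E2 passed too (limma adjusted p = 0.0243 and 0.0428).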

Other observations

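ATA27, listed as another ER-retained beta-glucosidase outside the symbols followed above, had normalized signals of 7.17 and 7.17 in induced seedlings, against 5.61 and 1.16 in controls, all under the dim limit.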
